A study of Mus musculus with 7 samples.

Results

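The late and the early state of mouse lung tumors under continued gefitinib were compared, with 1 library at day 14 of the drug and 1 at day 3. These are 2 of the 7 libraries of the series, and both were given by their titles and treatment labels. Differences are log2((TPM + 1, day 14) / (TPM + 1, day 3)), so that a positive value means a higher level at day 14, for the 13997 of 21892 listed genes whose TPM averaged 1 or more across all 7 libraries. TPM is an abundance per transcript length, scaled to the same total in each library, and can be compared between genes. Genes are called higher or lower where they differed by at least 2-fold on this scale.

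All groups had subcutaneous tumors, passaged in C57BL/6 mice, with an exon 19 deletion of Egfr, the receptor tyrosine kinase that gefitinib inhibits. The day 14 group had received gefitinib for 14 days, the day 3 group for 3 days. A vehicle library of day 3 is given below as a further value where it helps to place a level. A day 14 library of vehicle-treated mice was not analysed here, so days on gefitinib and days of tumor growth cannot be told apart. Of the other 4 libraries, all of day 21, each came 7 days after 14 days of gefitinib and had received vehicle, DC101 (an antibody to VEGFR2), 4H2 (an antibody to PD-1) or both. The sources used here give neither the number of animals in a library nor their age. Since each group has 1 library, every difference below lies between 2 libraries, has no replicate check and carries no test. The depth of sequencing is unknown.

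Tumors driven by mutant EGFR depend on its signal through the RAS and MAPK pathway for growth. When the kinase is inhibited, tumor cells stop dividing and many die, macrophages clear them, and fibroblasts can lay down matrix in their place. T cells that meet antigen for long periods take on inhibitory receptors such as PD-1, and B cells and plasma cells can gather beside them in lymphoid aggregates.

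Of the genes compared, 690 (4.93%) were at least 2-fold higher and 382 (2.73%) at least 2-fold lower at day 14. The median difference over all genes was 0.11, with quartiles of -0.13 and 0.36, so that most genes lay above 0. The shares of 4.93% and 2.73% and this median are the background for every count of list members below. At a 4-fold limit, 115 genes were higher and 60 lower. Among the 21 possible pairs of libraries, the number of genes at least 2-fold apart ran between 593 and 6419, and this pair had 1072 (7.66%). Of 74 gene lists with at least 3 genes compared, 21 had a median of at least 0.5, 7 had a median of -0.5 or lower, and 46 lay between. The lung labels were met by the markers of alveolar type 2 cells: Sftpc, a surfactant protein, stood at 4162.1 TPM at day 14 and 4058 at day 3. Nkx2-1, the lung lineage factor, had 122.3 TPM at day 14 and 203.5 at day 3. Epcam, an epithelial adhesion protein, had 101.8 TPM at day 14 and 80.9 at day 3. Egfr itself stood at 438.7 TPM at day 14 and 499.3 at day 3, a difference of -0.19.

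Tissue around the tumor moved with the comparison. The summed TPM of 10 skin and hair genes was 99.7 at day 14 and 1.9 at day 3, that of 12 skeletal muscle genes was 3904.1 at day 14 and 2285.6 at day 3, and that of 11 adipocyte genes was 596.0 at day 14 and 285.8 at day 3. All 12 muscle genes and 9 of the 10 compared fat genes had a TPM of at least 1 in both libraries. Of those 10 fat genes, 7 were at least 2-fold higher and 1 was at least 2-fold lower (median 1.77). The hair keratins Krt71, Krt25, Krt27 and Krt73 had 30.2, 11.7, 9.1 and 4.4 TPM at day 14 and were each listed at 0 at day 3. Red cell genes went the other way: 7 erythroid genes summed to 95.4 TPM at day 14 and 562.9 at day 3. The part of these tissues in the results below was not tested. In such bulk samples, fewer cells of a type and less RNA per cell cannot be told apart.

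Plasma cell and B cell genes held the highest single difference and 5 of the 15 highest. Jchain, which joins the units of secreted IgM and IgA, stood at 288.8 TPM at day 14 and 1 TPM at day 3 (chromosome 5, 88519809 to 88527897, GRCm38.p6), a log2 difference of 7.18. Vehicle at day 3 had 0.4 TPM, and the day 21 library that received vehicle after gefitinib had 42.1 TPM. Mzb1, a chaperone of antibody assembly, stood at 62 TPM at day 14 and 1.3 at day 3 (4.78). Pou2af1, the B cell coactivator of octamer promoters, had 40.8 TPM at day 14 and 1.4 at day 3 (4.12). Derl3, of the endoplasmic reticulum degradation machinery, had 24.7 TPM at day 14 and 1 at day 3 (3.68). The plasma cell genes that many other cells also use differed less: Xbp1, the transcription factor of the unfolded protein response, had 284.9 TPM at day 14 and 178.7 at day 3. Sdc1, which epithelium expresses too, had 493.3 TPM at day 14 and 397.9 at day 3. Of 11 plasma cell genes compared, 6 were higher and none lower, with a median of 1.26.

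Of 12 B cell genes, 7 were higher (6 after median-of-ratios rescaling) and none lower (median 1.23). Cd79a, a signalling chain of the B cell receptor, stood at 27.1 TPM at day 14 and 1.8 at day 3. Ms4a1, which encodes CD20, had 6.1 TPM at day 14 and 0.2 at day 3. Cd79b, the partner of Cd79a, stood at 42.9 TPM at day 14 and 24.6 at day 3, a smaller difference of 0.78. The ratio of Jchain to Cd79a TPM was 10.7 at day 14 and 0.556 at day 3. A joint list of germinal centre genes and lymphoid chemokines lay beside these genes. Of its 11 members compared, 7 were higher (6 after either rescaling) and none lower (median 1.19). Ccl21a, a ligand of CCR7 made by lymphatic and stromal cells, stood at 46 TPM at day 14 and 7 at day 3, and was listed at 0 in the vehicle library. Ccl19, the other CCR7 ligand, had 9.5 TPM at day 14 and 1.2 at day 3. Cxcl13, which attracts B cells through CXCR5, had 10.1 TPM at day 14 and 3 at day 3. The receptor Ccr7 stood at 30.9 TPM at day 14 and 30.2 at day 3. Pla2g2d, a secreted phospholipase of lymphoid tissue dendritic cells and macrophages, had 31.9 TPM at day 14 and 1.7 at day 3 (3.61).

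**Figure D1:**
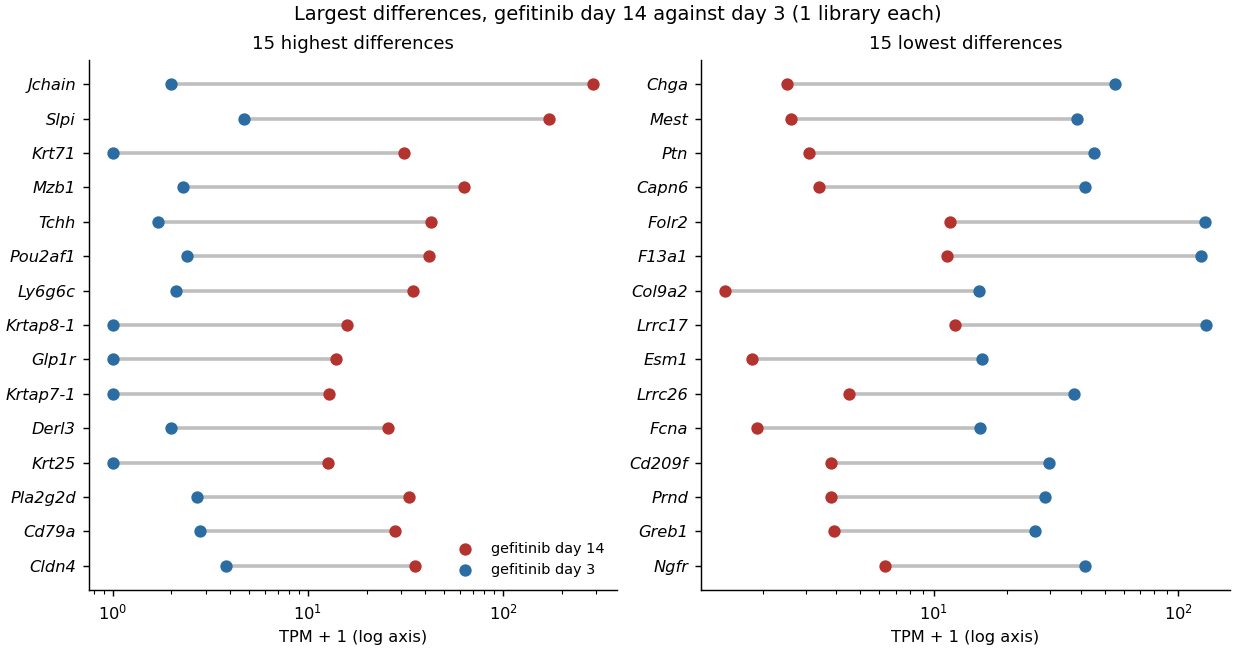
TPM + 1 on a log axis for the 15 genes with the highest and the 15 with the lowest log2 difference, among genes that reached 10 TPM at either time. Each point is 1 library, gefitinib day 14 in red and day 3 in blue. Plasma cell and hair genes fill much of the left panel, with Jchain at 288.8 TPM at day 14 against 1 at day 3, and Chga, at 1.5 TPM at day 14 against 54.1 at day 3, heads the right.

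Genes of the T cell receptor complex and of CD8 T cells were higher at day 14. All 14 members of the receptor list lay above 0, and 11 were at least 2-fold higher (9 after median-of-ratios rescaling), with a median of 1.15. Cd3e, a signalling chain of the receptor, stood at 167.7 TPM at day 14 and 52.2 at day 3. Cd8a, a chain of the CD8 coreceptor, stood at 58.8 TPM at day 14 and 10.6 at day 3, 2.37 higher (chromosome 6, 71373427 to 71379171). Cd8b1, its partner, had 49.1 TPM at day 14 and 13.8 at day 3. Cd4, the coreceptor of helper T cells, had 106.9 TPM at day 14 and 59 at day 3, a difference of 0.85. The ratio of Cd8a to Cd4 TPM was therefore 0.550 at day 14, against 0.180 at day 3 and 0.200 in the vehicle library. Ptprc, the CD45 gene common to all white cells, stood at 163.4 TPM at day 14 and 167.3 at day 3.

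The cytotoxic genes did not move as 1 block. Of 14 in the CD8 and cytotoxic list, 9 were at least 2-fold higher (6 after median-of-ratios rescaling) and 1 lower, with a median of 1.06. Nkg7, of cytotoxic granules, stood at 178.9 TPM at day 14 and 54.6 at day 3. Ccl5, a chemokine of effector T cells, had 776.6 TPM at day 14 and 316.8 at day 3. Ifng, which encodes interferon gamma, had 14.4 TPM at day 14 and 4.3 at day 3. Gzmk, a granzyme, stood at 13 TPM at day 14 and 1.9 at day 3. Gzma stood at 19.5 TPM at day 14 and 58.5 at day 3, and was the 1 member of the CD8 list that was at least 2-fold lower. Gzmb, a granzyme that starts cell death in the target, had 21.1 TPM at day 14 and 31.6 at day 3. The ratio of Gzmk to Gzma TPM was 0.667 at day 14 and 0.0325 at day 3, and that of Gzmb to Cd8a was 0.359 at day 14 and 2.98 at day 3. Both are ratios of bulk TPM, to which several cell types can contribute, and not levels per CD8 T cell. Prf1, which encodes perforin, stood at 31.1 TPM at day 14 and 17.1 at day 3.

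Of 10 natural killer cell genes compared, none reached 2-fold (1 was at least 2-fold lower after either rescaling), 6 lay below 0 and the median was -0.34, but 0.40 where only members averaging 5 TPM or more were kept. Ncr1, the activating receptor NKp46, stood at 6.4 TPM at day 14 and 10.2 at day 3. Klra8, the receptor Ly49H, had 3.1 TPM at day 14 and 7 at day 3. Xcl1, a chemokine of natural killer and CD8 T cells, had 26.7 TPM at day 14 and 44.7 at day 3. Klrc1, which encodes the inhibitory receptor NKG2A of natural killer and CD8 T cells, lay the other way, at 8.3 TPM at day 14 and 4.1 at day 3.

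Inhibitory receptors of T cells were higher at day 14, with all 12 members of the checkpoint list above 0, 6 at least 2-fold higher (4 after median-of-ratios rescaling) and a median of 0.91. Pdcd1, which encodes PD-1, stood at 85.5 TPM at day 14 and 11.7 at day 3, 2.77 higher (chromosome 1, 94038305 to 94052553). Elsewhere it stood at 0.8 TPM with vehicle at day 3, and at 27.5, 15.8, 40.6 and 31.4 TPM at day 21 after vehicle, DC101, 4H2 and both antibodies, so that the day 14 value was the highest of the 7. Tox, a transcription factor of T cells under lasting antigen, stood at 27.7 TPM at day 14 and 4.5 at day 3. The inhibitory receptor gene Lag3 had 99.7 TPM at day 14 and 25.3 at day 3. Tigit, another, had 53.9 TPM at day 14 and 16.7 at day 3. Havcr2, which encodes TIM-3 and is also made by myeloid cells, had 48.8 TPM at day 14 and 22.6 at day 3. The ligand genes differed less: Cd274, which encodes PD-L1, stood at 74.2 TPM at day 14 and 45.5 at day 3, and Ctla4 of the list's receptors at 18.6 TPM at day 14 and 11.9 at day 3. Per unit of Cd3e, Pdcd1 was 0.510 at day 14 and 0.224 at day 3. That ratio is for Pdcd1 alone. The median of the checkpoint list, 0.91, lay below the 1.15 of the T cell receptor list.

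Naive and memory T cell genes split into groups. Cxcr3, the receptor for CXCL9 and CXCL10, stood at 78.9 TPM at day 14 and 29.1 at day 3. Cd27 had 32.5 TPM at day 14 and 14.2 at day 3. Cd28, a costimulatory receptor like Cd27, had 15.3 TPM at day 14 and 6.6 at day 3. Il7r, the interleukin 7 receptor, had 23.3 TPM at day 14 and 27.5 at day 3. Tcf7, a factor of naive and stem-like T cells, had 30.9 TPM at day 14 and 28.9 at day 3. The list as a whole had 4 of 12 members higher, none lower and a median of 0.10, against 0.11 over all genes. Tcf7 per unit of Cd3e was 0.184 at day 14 and 0.554 at day 3. Among helper and regulatory T cell genes, 2 of 13 were higher and none lower (median 0.60, or 0.48 with a pseudocount of 5, under the limit of 0.5). These were Ccr8 and Tnfrsf9. Ccr8, a chemokine receptor of tumor regulatory T cells, had 18.3 TPM at day 14 and 6.8 at day 3. Tnfrsf9, a costimulatory receptor, had 28.9 TPM at day 14 and 12.1 at day 3. Foxp3, the master regulator of regulatory T cells, had 23.2 TPM at day 14 and 15.6 at day 3. Per unit of Cd3e, Foxp3 was 0.138 at day 14 and 0.299 at day 3.

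**Figure D2:**
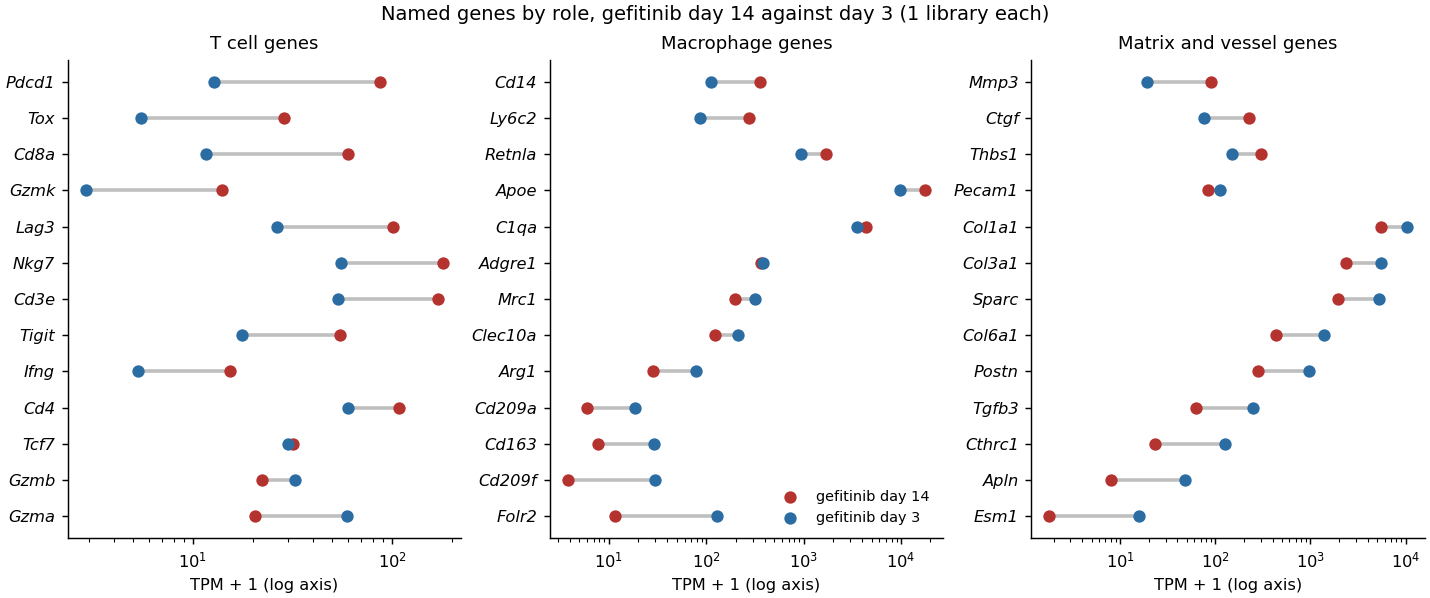
TPM + 1 on a log axis for named T cell, macrophage, matrix and vessel genes; each point is 1 library, gefitinib day 14 in red and day 3 in blue. Pdcd1, Tox and Cd8a lie to the right at day 14 while Gzma lies to the left, and Folr2, Col6a1 and Esm1 lie well to the left of their day 3 values.

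Antigen presentation genes lay mostly above 0 but short of 2-fold. All 16 class I genes lay above 0 with a median of 0.56 (15 of 16, with B2m at -0.0019 and a median of 0.48, after median-of-ratios rescaling), and 2 reached 2-fold. These were H2-Q6 and Nlrc5. H2-Q6, a class I heavy chain, had 459.8 TPM at day 14 and 210.8 at day 3. Nlrc5, the transactivator of class I genes, had 143.6 TPM at day 14 and 69 at day 3. B2m, the common light chain, differed by 0.08, less than the median gene, at 7688.3 TPM at day 14 and 7258.8 at day 3. All 10 class II genes lay above 0 with a median of 0.72, and 2 reached 2-fold. Cd74, the invariant chain, had the largest gain of TPM of any gene, with 27625 TPM at day 14 and 14765.6 at day 3, a gain of 12859.4. Ciita, the class II transactivator, had 226.7 TPM at day 14 and 132.9 at day 3. Values of the near-identical H2-Q genes are uncertain, because how reads that fit several copies were counted is unknown here.

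Interferon gamma and type I interferon targets lay on opposite sides of 0. All 15 interferon gamma response genes compared lay above 0 (median 0.63, 3 at least 2-fold higher), and 12 of 14 type I response genes lay below 0 (median -0.27, 1 at least 2-fold lower, none higher). Many genes answer to both interferons, so the lists are not separate pathways. Tgtp1, an immunity-related GTPase with the close copy Tgtp2, stood at 301.7 TPM at day 14 and 98.6 at day 3. Tgtp2 had 352.7 TPM at day 14 and 190.7 at day 3. Iigp1, a GTPase of the same family, had 479.5 TPM at day 14 and 222.4 at day 3. Gbp4, a guanylate-binding protein, had 97.1 TPM at day 14 and 44.9 at day 3. Rsad2, the antiviral enzyme viperin, stood at 15.4 TPM at day 14 and 34.3 at day 3. Irf7, the amplifier of type I interferon, had 295.7 TPM at day 14 and 432.4 at day 3. Ifit3, of the antiviral IFIT family, was an exception, at 113.1 TPM at day 14 and 91.3 at day 3. Cxcl9 and Cxcl10, chemokines that draw CXCR3-bearing T cells, were both higher at day 14 but short of 2-fold. Cxcl9 had 511.9 TPM at day 14 and 299 at day 3, and Cxcl10 had 323.5 TPM at day 14 and 167.1 at day 3.

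The 250 bases before the start of a gene from each side of this divide are shown, because the interferon-stimulated element is a known control sequence of both kinds of gene. They are RefSeq windows of GRCm38.p6, written 5′ to 3′ along the gene, with 2 copies of GAAA, 2 bases apart in the same direction on either strand, in capitals with the bases between them. From each list they are the 2 genes with the largest difference in its direction among those with 1 window and a match, leaving out the Tgtp copies. Igtp (chr11:58199306-58199555, + strand; 507.7 TPM at day 14 and 268.8 at day 3) and Gbp5 (chr3:142496684-142496933, + strand; 134.5 TPM at day 14 and 86.7 at day 3) come from the interferon gamma list. Rsad2 (chr12:26456453-26456702, - strand) and Oas1a (chr5:120907526-120907775, - strand; 67.2 TPM at day 14 and 103.1 at day 3) come from the type I list.
Igtp: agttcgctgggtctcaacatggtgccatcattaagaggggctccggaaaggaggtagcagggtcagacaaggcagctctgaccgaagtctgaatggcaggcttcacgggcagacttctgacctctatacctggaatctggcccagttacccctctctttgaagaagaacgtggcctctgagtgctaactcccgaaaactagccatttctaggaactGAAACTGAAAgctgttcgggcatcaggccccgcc
Gbp5: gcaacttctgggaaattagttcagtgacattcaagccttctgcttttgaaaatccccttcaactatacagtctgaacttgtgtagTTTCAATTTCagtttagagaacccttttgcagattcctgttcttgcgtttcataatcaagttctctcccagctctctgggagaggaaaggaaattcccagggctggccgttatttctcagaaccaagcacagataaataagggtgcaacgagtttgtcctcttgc
Rsad2: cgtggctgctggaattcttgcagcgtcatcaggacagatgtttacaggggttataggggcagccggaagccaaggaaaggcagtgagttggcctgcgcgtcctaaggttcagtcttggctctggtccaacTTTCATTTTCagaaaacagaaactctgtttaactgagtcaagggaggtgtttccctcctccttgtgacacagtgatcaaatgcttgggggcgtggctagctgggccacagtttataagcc
Oas1a: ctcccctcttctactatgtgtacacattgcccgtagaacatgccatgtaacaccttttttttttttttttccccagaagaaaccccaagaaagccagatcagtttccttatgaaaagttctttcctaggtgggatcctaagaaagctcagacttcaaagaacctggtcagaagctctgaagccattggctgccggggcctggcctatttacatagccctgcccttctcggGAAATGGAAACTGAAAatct
The match nearest the start began 34 bases before it in Igtp, 165 in Gbp5, 120 in Rsad2 and 14 in Oas1a, where 2 matches overlap. Some genes have more than 1 RefSeq window. This repeat was in 10 of the 14 windows of 12 interferon gamma response genes and in 6 of the 12 windows of 11 type I response genes. It was in 2.98% of all 32851 promoter windows of that length. Counted by gene, it was in 10 of the 12 and 6 of the 11. The STAT motif TTCNNNGAA, which was searched alike and can overlap the repeat, was in 7 of the 14 windows and 2 of the 12. It was in 7.02% of all windows. A match is a string of letters and not a shown binding site.

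Macrophage genes divided by kind. The list of general macrophage and monocyte genes was level, with a median of 0.04 (-0.05 after median-of-ratios rescaling), 2 of 16 higher and none lower. Adgre1, which encodes F4/80, stood at 366.8 TPM at day 14 and 385.7 at day 3. Lyz2, lysozyme, had 6691 TPM at day 14 and 7081.3 at day 3. The 2 higher genes were Cd14 and Ly6c2. Cd14, the lipopolysaccharide coreceptor, had 352.3 TPM at day 14 and 110.5 at day 3. Ly6c2, a surface protein of inflammatory monocytes and some T cells, had 271.4 TPM at day 14 and 86.3 at day 3. Ccr2, the monocyte chemokine receptor, lay the other way at 96.8 TPM at day 14 and 143.7 at day 3. The CCR2 ligand gene Ccl2 stood at 304.2 TPM at day 14 and 122.1 at day 3. Apoe, a lipid carrier that macrophages make, had 17691.4 TPM at day 14 and 9725.4 at day 3.

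Genes of tissue-resident and alternatively activated macrophages were lower, with 3 of 10 at least 2-fold lower, none higher and a median of -0.75. Their summed TPM went the other way, at 2359.6 at day 14 and 2044.8 at day 3, and Retnla alone held 1709.8 TPM at day 14 and 929.2 at day 3. Folr2, a folate receptor of resident macrophages, stood at 10.7 TPM at day 14 and 127.2 at day 3, a difference of -3.45, and at 26 TPM in the vehicle library. Cd163, the hemoglobin scavenger receptor, had 6.8 TPM at day 14 and 28.2 at day 3. Mrc1, the mannose receptor, had 195.2 TPM at day 14 and 315.7 at day 3. Arg1, arginase 1, had 27.4 TPM at day 14 and 77.2 at day 3. F13a1, the clotting factor chain that such macrophages carry, had 10.3 TPM at day 14 and 122.8 at day 3. Fcna, a ficolin, had 0.9 TPM at day 14 and 14.5 at day 3. Retnla and Chil3, secreted proteins of alternative activation, lay the other way, and Chil3 had 5.9 TPM at day 14 and 2.5 at day 3. The Cd209 lectins were looked at together after Cd209f was seen among the lowest genes. All 7 lay below 0 and 6 were at least 2-fold lower, with a summed TPM of 14.7 at day 14 and 77.8 at day 3. Lyve1, a hyaluronan receptor of resident macrophages and lymphatic vessels, had 2 TPM at day 14 and 14.4 at day 3.

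None of 12 conventional dendritic cell genes was at least 2-fold higher, 1 was lower and the median was 0.32. Xcr1, the chemokine receptor of the cross-presenting subset, stood at 11 TPM at day 14 and 5.6 at day 3. Clec9a, its receptor for dead cells, had 17 TPM at day 14 and 11.7 at day 3. Of 8 plasmacytoid dendritic cell genes, 3 were higher (2 after median-of-ratios rescaling) and none lower, with a median of 0.30, or 1.07 at a mean TPM of at least 5. These were Pacsin1, Cox6a2 and Ly6d. Pacsin1, a membrane-bending protein, had 13.8 TPM at day 14 and 4.8 at day 3. Cox6a2, also the muscle form of a cytochrome oxidase subunit, had 83.5 TPM at day 14 and 38 at day 3. Ly6d, which some B cell precursors and epithelia express too, had 20.2 TPM at day 14 and 9.1 at day 3. Siglech, a receptor of plasmacytoid cells, stood at 4.8 TPM at both day 14 and day 3. Fc gamma receptors had a median of -0.06 with none of 7 called, and 14 complement genes a median of 0.33 with none called, although C3, the central component, had 911.6 TPM at day 14 and 514.3 at day 3. The neutrophil genes S100a8, S100a9 and Ly6g were listed at 0 in both libraries. Lcn2, which the neutrophil list shares with epithelium, stood at 197.9 TPM at day 14, 41.6 at day 3 and 534 in the vehicle library.

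**Figure D3:**
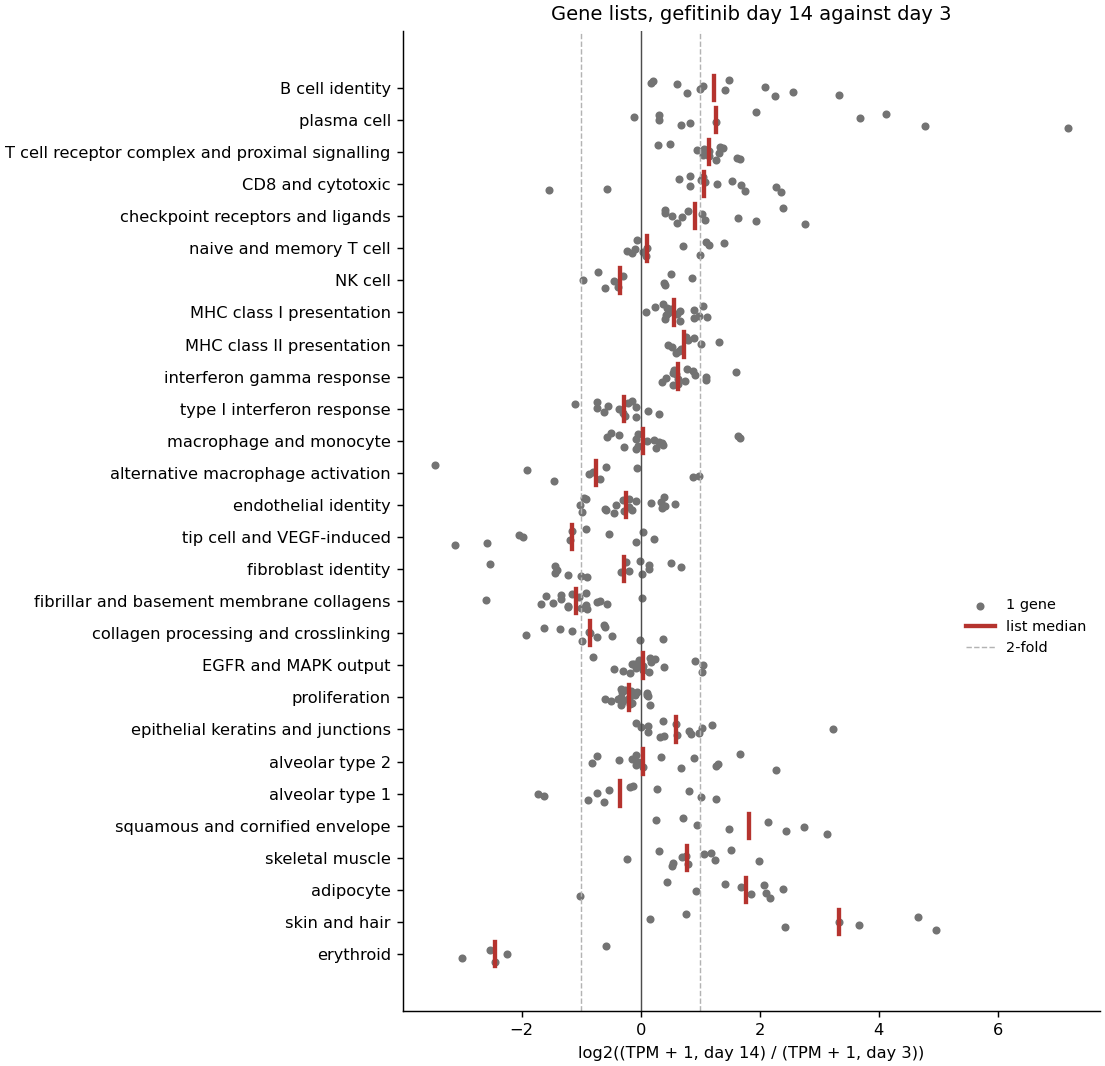
Log2 difference between gefitinib day 14 and day 3 for each compared member of 28 gene lists, with the median of the list as a red bar and 2-fold limits as dashed lines; each point is 1 gene. B cell genes (median 1.23) and T cell receptor genes (1.15) lie to the right, collagens (-1.09) and tip cell genes (-1.15) to the left, and EGFR and MAPK output (0.03, or -0.05 after median-of-ratios rescaling) near the zero line.

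Collagen genes were lower at day 14. Of 18 fibrillar and basement membrane chains, 17 lay below 0 (18 after median-of-ratios rescaling), 11 were at least 2-fold lower and none was higher (median -1.09). Their summed TPM was 14045.8 at day 14, 28890.2 at day 3 and 4555.6 in the vehicle library. Col1a1, the main chain of type I collagen, stood at 5500.7 TPM at day 14 and 10261.8 at day 3 (chromosome 11, 94936224 to 94953042). Col3a1, of type III, had 2372.7 TPM at day 14 and 5524.5 at day 3. The difference was larger for type VI collagen, a microfibrillar form. Col6a1 had 434.9 TPM at day 14 and 1393.2 at day 3 (-1.68). Col6a2 had 363.1 TPM at day 14 and 1013.3 at day 3 (-1.48). Col8a2, of network-forming type VIII, had 25.7 TPM at day 14 and 161.4 at day 3 (-2.60). Col12a1, a fibril-associated chain, had 227 TPM at day 14 and 223 at day 3. Col9a2, a chain of cartilage, was among the lowest genes of all, at 0.4 TPM at day 14 and 14.3 at day 3.

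Enzymes that mature collagen moved with it, with 12 of 13 below 0, 4 at least 2-fold lower and a median of -0.84. Plod2, a lysyl hydroxylase that prepares crosslinks, stood at 15.8 TPM at day 14 and 62.6 at day 3. Serpinh1, the collagen chaperone HSP47, had 498.5 TPM at day 14 and 1277.7 at day 3. Pcolce, an enhancer of propeptide removal, had 176.2 TPM at day 14 and 545.4 at day 3. Loxl2, a lysyl oxidase, lay above 0 at 87.7 TPM at day 14 and 67.2 at day 3. Matricellular genes went both ways. Postn, periostin, had 278.8 TPM at day 14 and 955 at day 3. Cthrc1, of activated fibroblasts, had 22.4 TPM at day 14 and 125.7 at day 3. Sparc, a collagen-binding protein, had 1937.4 TPM at day 14 and 5207.4 at day 3. Ctgf and Thbs1 lay the other way. Ctgf, a target of YAP and TGF-beta, had 226.3 TPM at day 14 and 74.2 at day 3. Thbs1, a thrombospondin, had 299.3 TPM at day 14 and 147.2 at day 3. Tgfb3, a TGF-beta ligand, had 61.2 TPM at day 14 and 246.3 at day 3. Tgfb1 had 397.1 TPM at day 14 and 429.6 at day 3.

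Fibroblast identity genes divided. Of the 16 in the list, which includes Col1a1, Col1a2 and Col3a1, 6 were called lower and none higher, with a median of -0.28, or -0.11 without the members shared with other lists. Dcn, decorin, stood at 321.6 TPM at day 14 and 315.8 at day 3. Pdgfra, a receptor kinase for PDGF, had 44.5 TPM at day 14 and 55.9 at day 3. Thy1, a surface protein of fibroblasts and T cells, had 532.8 TPM at day 14 and 333.9 at day 3. The lower members beside Col1a2 and Col3a1 were Ogn, Lum, Mfap4 and Fap. Ogn, an organizer of collagen fibrils, had 10.1 TPM at day 14 and 63 at day 3. Lum, another, had 69.8 TPM at day 14 and 191.9 at day 3. Mfap4, of microfibrils, had 152.3 TPM at day 14 and 415.3 at day 3. Fap, a surface protease, had 4.3 TPM at day 14 and 13 at day 3. Genes of the mesenchymal transition list were lower too, with 6 of 14 called and none higher (median -0.57, but -0.35 without the members shared with other lists, which ends the description as lower), among them the transcription factors Snai1 and Snai2. Snai1 had 35.7 TPM at day 14 and 85.2 at day 3. Snai2 had 5 TPM at day 14 and 18.2 at day 3. Mmp3, stromelysin 1, lay the other way at 88.7 TPM at day 14 and 18.3 at day 3.

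Vessel genes divided between sprouting and identity. Of 11 genes of tip cells and VEGF induction, 6 were lower by 2-fold or more (7 after median-of-ratios rescaling), none was higher, and the median was -1.15. Esm1, a secreted proteoglycan of tip cells, stood at 0.8 TPM at day 14 and 14.7 at day 3, and at 4.7 TPM in the vehicle library. Apln, apelin, had 7 TPM at day 14 and 47 at day 3. Pgf, a ligand of VEGFR1, had 1.6 TPM at day 14 and 9.7 at day 3. Angpt2, a ligand of TIE2, had 6.2 TPM at day 14 and 15.4 at day 3. Basement membrane genes in this list, Col4a1 and Nid2, are also made by other stroma. Of 20 endothelial identity genes, 1 was at least 2-fold lower and none higher, with a median of -0.24. After median-of-ratios rescaling 3 of these were lower, and 2 after rescaling without abundant and structural genes. Kdr, which encodes VEGFR2, stood at 18.6 TPM at day 14 and 22.9 at day 3. Pecam1, CD31, had 82.1 TPM at day 14 and 112.2 at day 3. Vegfa, the ligand gene of VEGFR2, had 75.3 TPM at day 14 and 53.3 at day 3. Ackr1, the chemokine receptor of venules, had 26.6 TPM at day 14 and 9 at day 3. Rgs5, of pericytes, had 44.8 TPM at day 14 and 124.7 at day 3.

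The output of the MAPK pathway was level between the libraries. Of 19 target genes, 2 were at least 2-fold higher (none after median-of-ratios rescaling), none was lower and the median was 0.03, or -0.05 after that rescaling. Dusp6, the ERK phosphatase, stood at 125.5 TPM at day 14 and 114 at day 3. Spry2, a feedback inhibitor, had 29.2 TPM at day 14 and 28.5 at day 3. Ccnd1, cyclin D1, had 188.5 TPM at day 14 and 159.2 at day 3. The 2 higher members were Etv4, an ETS factor, at 47 TPM at day 14, 22.1 at day 3 and 163.1 in the vehicle library, and Dusp5, a nuclear ERK phosphatase, at 37.8 TPM at day 14, 18.1 at day 3 and 17.2 in the vehicle library. None of 22 proliferation genes reached 2-fold, against 7.66% of all genes either way, although 18 lay below 0 (median -0.19). Cdk1, the kinase of mitotic entry, had the lowest difference, with 6.5 TPM at day 14, 10.4 at day 3 and 60.2 in the vehicle library. Mki67, the Ki-67 antigen, had the highest, with 47 TPM at day 14, 42 at day 3 and 142.2 in the vehicle library. The EGF family ligand gene Areg, for amphiregulin, had 27 TPM at day 14 and 12.7 at day 3. Btc, for the ligand betacellulin, had 2.9 TPM at day 14 and 0.5 at day 3. Of the ligands of other kinases, Gas6, which activates AXL, stood at 191.7 TPM at day 14 and 822.5 at day 3, while Axl itself had 624.7 TPM at day 14 and 353.1 at day 3.

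Epithelial genes lay mostly above 0, as did most genes compared. Of 15, 14 lay above 0 (13 after either rescaling). At least 2-fold higher were 3 (2 after median-of-ratios rescaling), against 4.93% of all genes. Their median was 0.60, against 0.11 over all genes, or 0.497 with a pseudocount of 5, just under the limit. Cldn4, a tight junction claudin, stood at 34.5 TPM at day 14, 2.8 at day 3 and 26.9 in the vehicle library. Krt18 had 510.6 TPM at day 14 and 258.5 at day 3. Krt8, its keratin partner, had 341.1 TPM at day 14 and 189.9 at day 3. Secretory cell genes were higher, with 5 of 12 called and a median of 0.68, but 0.25 with a pseudocount of 5, which ends the description as higher. Bpifa1, an airway defence protein, stood at 6497.9 TPM at day 14, 1070.7 at day 3 and 9875.9 in the vehicle library. Outside this list, Slpi, an antiprotease of mucosal epithelium, had 170.2 TPM at day 14 and 3.7 at day 3, 5.19 higher, with 3.2 TPM in vehicle. Gpx2, an epithelial glutathione peroxidase of the NRF2 and antioxidant list, had 172.1 TPM at day 14 and 24.9 at day 3. Squamous genes were higher from low levels, with 5 of 8 called and a median of 1.81: Krt17 had 13 TPM at day 14 and 1.1 at day 3, and Krt5 had 7.8 TPM at day 14 and was listed at 0 at day 3. Krt5, Krt14 and Krt17 are also keratins of skin and hair follicles, whose markers differed in the same direction as given above.

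Alveolar genes went in both directions. Among type 2 genes, 4 of 15 were at least 2-fold higher and none lower (median 0.04, or -0.05 after either rescaling). Sftpa1, a surfactant protein, stood at 133 TPM at day 14 and 26.6 at day 3. Sftpd, a surfactant protein like Sftpa1, had 917.8 TPM at day 14 and 383.1 at day 3. Lamp3, of lamellar bodies, had 93.4 TPM at day 14 and 37.2 at day 3. Slc34a2, a phosphate transporter, lay the other way at 226.2 TPM at day 14 and 400.9 at day 3. Among type 1 genes the median was -0.35, with 2 of 12 higher (1 after either rescaling) and 2 lower. Without the members shared with other lists the median was -0.53, past the limit of -0.5. Aqp5, a water channel, had 669 TPM at day 14 and 276.4 at day 3. Cav1, caveolin, which vessels share, had 30.5 TPM at day 14 and 103.5 at day 3. Ager, a receptor of type 1 cells, had 815.8 TPM at day 14 and 1253.7 at day 3.

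Several of the lowest genes belong to none of these groups. Chga, chromogranin A of neuroendocrine granules, stood at 1.5 TPM at day 14, 54.1 at day 3 and 8.5 in the vehicle library. Mest, an imprinted hydrolase of fetal tissue, had 1.6 TPM at day 14 and 37.4 at day 3. Ptn, the growth factor pleiotrophin, had 2.1 TPM at day 14 and 44.4 at day 3. Capn6, a calpain without protease activity, had 2.4 TPM at day 14 and 40.4 at day 3. Lrrc17 had 11.2 TPM at day 14 and 128.4 at day 3. Mest, Ptn, Capn6 and Lrrc17 stood between 2.3 and 11.2 TPM in the vehicle library, so that in each of them the day 3 gefitinib library was the high one of the 3.

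**Figure D4:**
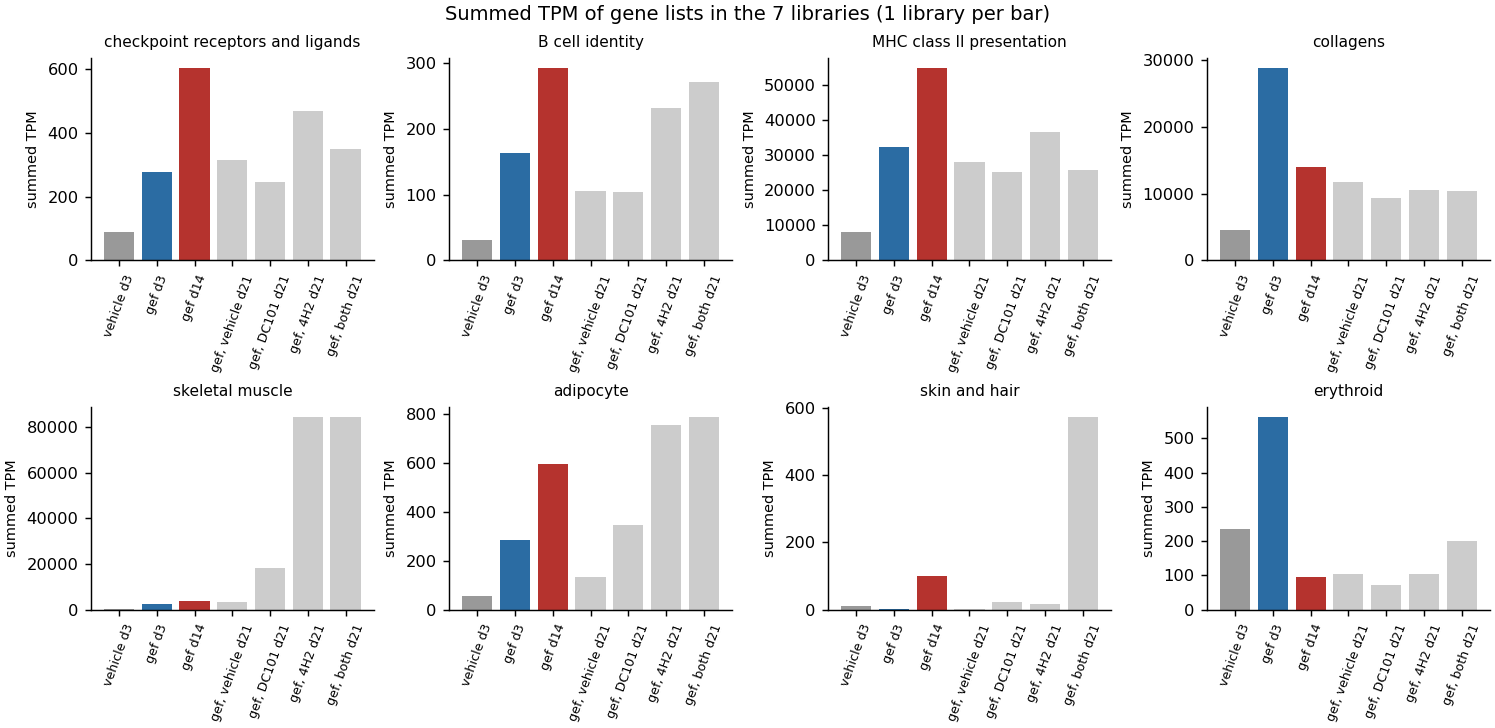
Summed TPM of 8 gene lists in each of the 7 libraries, 1 library per bar, in order of time; gefitinib day 14 is red and gefitinib day 3 blue. The checkpoint list and the B cell list are highest at day 14 (604.5 TPM at day 14 and 277.2 at day 3 for the checkpoint list, 293.5 TPM at day 14 and 163.4 at day 3 for the B cell list), collagens are highest at day 3, and the lower row shows muscle, fat, hair and red cell genes, which also differ between these libraries.

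Of 7 metabolic lists, none had a median of 0.5 or more, or of -0.5 or less. In other settings some passed 0.5. Fatty acid synthesis genes had a median of 0.518 with a pseudocount of 0.1. By the mean over members they stood at 0.637, and NRF2 and antioxidant genes at 0.525. Of 13 NRF2 and antioxidant genes, 3 were higher and 1 lower (median 0.42). Beside Gpx2, the higher ones were Cbr3 and Slc7a11. Cbr3, a carbonyl reductase, had 69.4 TPM at day 14 and 25.9 at day 3. Slc7a11, the cystine transporter, had 4.1 TPM at day 14 and 1.2 at day 3. Hmox1, heme oxygenase 1, which macrophages also make, was the lower one, with 174.4 TPM at day 14 and 405.3 at day 3. Of 10 fatty acid synthesis genes, 2 were higher and none lower (median 0.49). Scd1, a fatty acid desaturase that fat cells express strongly, stood at 286.1 TPM at day 14 and 38.7 at day 3. Of the 10 fat genes compared, 7 were higher and 1 lower. Among the higher ones, Adipoq had 23.4 TPM at day 14 and 4.4 at day 3. Cfd, another, had 376.8 TPM at day 14 and 71.2 at day 3, and held most of the fat sum of 596.0 TPM at day 14. Of 18 cholesterol synthesis genes, 1 was higher, near the 4.93% of all genes (median 0.24). The nuclear genes of the respiratory chain had a median of 0.00 with none of 15 called, and hypoxia and glycolysis genes a median of -0.21, with 2 of 16 lower and none higher. Egln3, a prolyl hydroxylase, had 6.4 TPM at day 14 and 15.8 at day 3. Bnip3, of mitophagy, had 28.4 TPM at day 14 and 58.4 at day 3. All 20 ribosomal protein genes lay below 0 (median -0.40), none of them by 2-fold.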

How the data were processed

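The authors deposited TPM to 1 decimal for 21892 gene symbols, with 0.1 as the smallest value above 0. Per the labels' protocols, total RNA of frozen tissue was depleted of ribosomal RNA and made into directional libraries. Per the submitters' processing notes, the genome build was GRCm38.p6. The aligner and the counting tool were not given in the sources used here. An exact 0 is called listed at 0, since every library has all 13 protein genes of the mitochondrial genome at 0, and no ratio of TPM against it is given. Such genes keep a difference through the pseudocount, which ranks and counts them but is no measured fold.

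Differences were computed in Python 3.11.15 with pandas 2.3.3 and numpy 2.4.6, after adding a pseudocount of 1, and the code was tested on simulated data. For low genes the pseudocount shrinks the difference. With 1 library per group there is no spread between replicates. The 75 gene lists (961 entries, 904 different genes) and the comparison itself were chosen with earlier results of these data known. A list is described as higher or lower where its median over at least 3 genes reached 0.5 or -0.5. Named genes are the 15 highest and 15 lowest that reach 10 TPM in at least 1 of the libraries, without predicted, ribosomal, histone, antigen receptor, hemoglobin, mitochondrial and noncoding genes, then up to 6 members of each list in the direction of its median and up to 3 in the other, and a fixed set of anchors, of which those reported here are given (Egfr, Epcam, Mki67, Sftpc, Ager, Ptprc, Cd8a, Cd4, Jchain, Gzmb, Ifng, Pdcd1, Cd274, Kdr, Vegfa and Col1a1). The list members Adgre1, B2m, Ccr7, Cd79b, Ctla4, Dcn, Dusp6, Foxp3, Gbp5, Ly6g, Lyz2, Pdgfra, Pecam1, S100a8, S100a9, Sdc1, Siglech, Spry2, Tcf7 and Xbp1 were named after their values were seen. Symbols were matched to RefSeq of the same build, which found 21355 of them. Promoter windows, 250 bases before each start, are from RefSeq.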

Additional observations from a re-analysis of the deposited data

How the results depend on the processing

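The number of genes at least 2-fold higher, 690 as reported, was 1058 with a pseudocount of 0.1 and 253 with one of 5, 450 at a mean TPM of at least 5, and 352 among genes that reached 10 TPM at either time, a choice made after seeing the data. The number lower, 382 as reported, was 515, 182, 247 and 243 in the same 4 settings. Without a filter on low values the counts were 770 higher and 419 lower. With a median-of-ratios rescaling over 7340 genes they were 570 and 426, so that the split between higher and lower genes was more even. Without 945 neighbouring tissue genes they were 505 and 371. These genes belong to the muscle, fat, hair, nerve, red cell or platelet lists, or follow the sums of the muscle, fat or hair lists. The median of all genes was 0.11 as reported, 0.114 and 0.0799 with the pseudocounts of 0.1 and 5, 0 without a filter, 0.0974 at the mean of 5, 0.0285 after median-of-ratios rescaling, 0.0989 after rescaling without abundant and structural genes and 0.0957 without the neighbouring tissue genes. It was 0.105 with the filter over the 2 libraries alone and 0.0864 with the limit of 10 TPM, both added after seeing the data.

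Of the 28 gene lists described as higher or lower, 28 kept that description with a pseudocount of 0.1, 21 with one of 5, 24 without a filter and 26 after median-of-ratios rescaling. That rescaling left 4 of 12 checkpoint genes at least 2-fold higher (6 as reported), 6 of 14 CD8 genes (9) and 1 of 10 class II genes (2), with medians of 0.84, 0.98 and 0.64. The 2 lists that lost it there were class I (0.48) and Wnt pathway genes (0.494). With the pseudocount of 5 it was lost by epithelial (0.497), granzyme (0.484), helper T cell (0.482), gut lineage (0.444), Wnt pathway (0.286), secretory (0.249) and platelet genes (-0.459), and without shared members by mesenchymal genes (-0.348). Without a filter it was lost by granzyme (0), neutrophil (0), gut lineage (0.354) and platelet genes (0.108). With the mean over members in place of the median, 25 of the 28 kept it. Granzyme (0.412), Wnt pathway (0.119) and platelet genes (-0.396) did not. Among these 28 lists, 1 median changed sign: platelet genes were at 0.108 without a filter, against -0.58 as reported. Medians of other lists also changed sign, among them natural killer cell genes (0.398) and pericyte genes (0.287, against -0.11 as reported) at a mean TPM of at least 5. No paired analysis was possible because each group has 1 library, and no replicate could be left out for the same reason. The depth of sequencing is unknown, so that no counting error can be given, and values of a few TPM rest on an unknown number of reads. Genes with near-identical copies carry uncertain values.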

Other observations

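Some genes of further lists differed between the libraries. Dbp and Nr1d1 of the circadian clock list were higher at day 14. Dbp, a transcription factor with a strong daily rhythm, stood at 37.2 TPM at day 14 and 10.3 at day 3, and Nr1d1, the repressor REV-ERB alpha, at 61.4 TPM at day 14 and 18.3 at day 3. Arntl, the core activator BMAL1, lay the other way at 13.8 TPM at day 14 and 18.6 at day 3. Of the 14 clock genes, 2 were higher and none lower (median 0.41). The hour of tissue collection is unknown here. Of 18 immediate early genes, 2 were higher and none lower, 6 lay below 0 and the median was 0.24. The 2 higher ones were Nr4a1 and Nr4a2, nuclear receptors induced by T cell receptor and other signals. Nr4a1 stood at 30.8 TPM at day 14 and 10.8 at day 3, and Nr4a2 at 19.3 TPM at day 14 and 5.2 at day 3.

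The next families were gathered after their values were seen. All 8 Gimap genes, GTPases of lymphocytes, lay above 0 (median 0.84, 3 at least 2-fold higher), with a summed TPM of 357.8 at day 14 and 190.9 at day 3. All 10 lysyl and prolyl hydroxylase genes lay below 0 (median -0.75, 3 lower), and their sum was 491.6 TPM at day 14 and 806.7 at day 3. Of 11 small leucine-rich proteoglycans compared, which bind collagen fibrils, 5 were lower and 1 higher (median -0.69), among them Fmod, fibromodulin, at 53.8 TPM at day 14 and 312.4 at day 3. Over all 33 collagen chains compared, 17 were lower and 1 higher. Of 54 hair keratin-associated protein genes listed, 44 had a TPM above 0 at day 14 and 2 at day 3, and their sum was 101.7 TPM at day 14 and 0.4 at day 3, with 686.2 TPM in the day 21 library after both antibodies.

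Glp1r, the receptor of glucagon-like peptide 1, stood at 12.9 TPM at day 14 and was listed at 0 in both day 3 libraries, and it stood between 1.9 and 9 TPM in the 4 libraries of day 21. Cbr2, a carbonyl reductase of lung, chosen after its values were seen, stood at 2397.6 TPM at day 14, 671.4 at day 3 and 343 in the vehicle library. It was between 42.3 and 130.1 TPM at day 21. Wnt pathway genes were spread to both sides, with 3 of 12 higher and 3 lower. Lgr5, the receptor of R-spondins, was among the higher ones, at 8.5 TPM at day 14 and 2.9 at day 3. Axin2, a feedback target, was short of 2-fold, at 12.9 TPM at day 14 and 6.8 at day 3. Wnt5a, a noncanonical ligand, was among the lower ones and stood at 2.9 TPM at day 14 and 12.1 at day 3.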
